A study of Mus musculus with 2 samples.

Results

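The Ly49 receptors are lectin-like proteins on the surface of mouse natural killer (NK) cells and of some T cells, and their Klra genes lie side by side on chromosome 6. Most of them bind MHC class I molecules on other cells. Inhibitory members (Ly49A, E, F, G and I) carry a motif in their tail that recruits the phosphatase SHP-1, whereas the activating members Ly49D and Ly49H signal through the adaptor DAP12. Each NK cell expresses its own combination of members, and inbred strains differ in which of the genes they carry. The 7 members described here, of 32285 genes in the files and of 11 whose symbol starts with Klra, were Klra1 (Ly49A), Klra4 (Ly49D), Klra5 (Ly49E), Klra6 (Ly49F), Klra7 (Ly49G), Klra8 (Ly49H) and Klra9 (Ly49I). They were chosen by symbol with their levels in these same NK and T cells already known, so where they were high is a description and carries no test.

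The libraries came from 1 tumour per group, each grown as an allograft in the pancreas of a mouse injected with KPC pancreatic cancer cells. One group received KPC-shV cells, which carry the control vector, and the other KPC-shZEB1 cells, which carry a hairpin RNA against Zeb1. The study's text states that the sequenced tumours came from mice given gemcitabine, a drug that the treatment label does not name. The strain of these 2 mice was not given in the labels. The study's methods name C57BL/6J, BABL/c and NSG mice aged 4 to 6 weeks, and the reads were assigned to mm10, a C57BL/6J genome. With 1 tumour per group and 1 cancer line, tumour, mouse and hairpin cannot be told apart, and no difference between the libraries has a replicate check. Where a group had 0 UMIs, the limit given is that of 3 counts and bears on detection, not on expression. All 95% intervals (exact Poisson for UMIs, Clopper-Pearson for shares of cells, conditional exact for ratios) cover counting error only.

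After filtering, 11398 cells of KPC-shV and 12104 cells of KPC-shZEB1 remained, with median depths of 3720 and 4252 unique molecular identifiers (UMIs) per cell. The libraries share 46 barcode sequences. Zeb1 went against the label. In tumour-like cells it stood at 167 CPM (counts per 1e6 UMIs) in KPC-shV and at 187 CPM in KPC-shZEB1, so KPC-shV and KPC-shZEB1 below mean the libraries labelled so. Cells were clustered without any Klra gene and named by markers. Together the 7 members gave 3718 UMIs in 1092 cells, of which 897 UMIs lay in KPC-shV and 2821 in KPC-shZEB1. NK-like cells held 37.4% of these UMIs and T-like cells 39.0%.

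The genes of the 7 members lie on the minus strand of chromosome 6 in the order Klra5, Klra6, Klra4, Klra8, Klra9, Klra7 and Klra1, between positions 129898996 and 130386874 of the mm10 build (GENCODE vM21), and no annotated gene overlaps any of them. Between the 21 pairs of members, identity over 300-base promoter windows (RefSeq, GRCm38.p6) ranged from 56.3% to 86.3%. The most alike pair was Klra4 and Klra8, the activating members, and without Klra1 the lowest identity was 64.3%. The stretches below align Klra4 and Klra8, higher in Eomes-high NK-like cells, with Klra6, higher in Cd4-Cd8-low T-like cells. Klra5, which was low in both subsets, and Klra7, which was shared by them (below), are aligned too. The letters CTTTGA, the core of the TCF and LEF motif, are in capitals. Klra9, also higher in Eomes-high NK-like cells, holds such a stretch without CTTTGA and is not shown. Any link of these letters to the cells that held a member was not tested.
Klra4, chr6:130067311-130067360, minus strand: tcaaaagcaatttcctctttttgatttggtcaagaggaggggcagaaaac
Klra8, chr6:130129939-130129988, minus strand: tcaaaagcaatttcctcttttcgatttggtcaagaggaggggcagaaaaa
Klra5, chr6:129913275-129913324, minus strand: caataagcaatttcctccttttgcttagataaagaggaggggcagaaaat
Klra6, chr6:130027034-130027083, minus strand: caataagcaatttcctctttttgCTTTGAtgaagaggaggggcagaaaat
Klra7, chr6:130233372-130233421, minus strand: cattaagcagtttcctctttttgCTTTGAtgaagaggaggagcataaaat

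The stretches were placed by the letters TTTCCTC on the gene's strand, which 4.63% of 32851 promoter windows hold and which 6 of the 7 members hold, all but Klra1. CTTTGA, searched on both strands, was present in the windows of Klra6 and Klra7 alone among the members and in 16.0% of all windows. TGTGGT, the RUNX core (16.8% of all windows), and TCACAC, a T-box core (14.5%), were each found in Klra1 only. The AP-1 letters TGANTCA (7.81%) were found in none of the 7. No 2 of these motifs overlapped in a member. For Klra5 the RefSeq start site differs from the end of the GENCODE gene.

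Reads of this 3′ assay fall near the ends of the transcripts, so the last 500 bases decide how well members can be told apart. In Klra1, Klra4, Klra5, Klra6 and Klra8 all 90-base windows there were unique among annotated transcripts. In Klra7 89.8% were unique, the rest being shared with the pseudogene Klra13-ps. Klra9 was the least certain member, with 85.9% of windows unique and 98.2% identity to the end of Klra3 (Ly49C). Since 1 UMI stands for 1 captured molecule, CPM were not divided by gene length.

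Among T and NK cells the family was concentrated in a few subsets. Summed over members it reached 1422 CPM in Eomes-high NK-like cells, where 84.6% of 162 cells (78.1–89.8%) held a UMI. These cells held Ncr1 in 64.8% and Eomes, the transcription factor of mature NK cells, in 64.8%, with Cd3 UMIs in 14.2%. The next highest were Cd4-Cd8-low T-like cells, at 670 CPM with 71.9% of 303 cells positive (66.5–76.9%). Of these, 97.0% held Cd3, 12.9% Cd8, 0.660% Cd4 and 25.4% Trdc, the constant region of the delta chain, while 91.7% held Ikzf2 (Helios) and 94.7% Il2rb. Zbtb16-Klrb1c T-like cells, led by Zbtb16 (PLZF) and Il4, followed at 521 CPM and 49.2% of 59 cells, although in KPC-shV alone they stood at 785 CPM (582–1034) beside 601 CPM (532–677) in Cd4-Cd8-low T-like cells. Eomes-low Itga1-high NK-like cells stood at 224 CPM and 26.7% of 60 cells.

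The other T-like subsets were low. Cycling T-like cells reached 64.1 CPM and effector CD8 T-like cells 27.7 CPM, and 4 subsets (CD4, regulatory, interleukin-17 and naive CD8 T-like) lay between 1.90 and 5.10 CPM. The background was read from cells that should lack the family. In granulocyte-like cells 0.848% held a UMI (2.68 CPM, median depth 3046 UMIs), and in B-like cells 1.78% (4.98 CPM, 3455 UMIs), so the 4 lowest T-like subsets stood at or near background. With every cell thinned to 1000 UMIs, 63.6% of Eomes-high NK-like, 43.2% of Cd4-Cd8-low T-like, 23.7% of Zbtb16-Klrb1c T-like and 15% of Eomes-low Itga1-high NK-like cells stayed positive, against 0.210% of granulocyte-like and 0.594% of B-like cells. No cell was left out by thinning, since 1000 UMIs was also the lower filter.

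**Figure D1:**
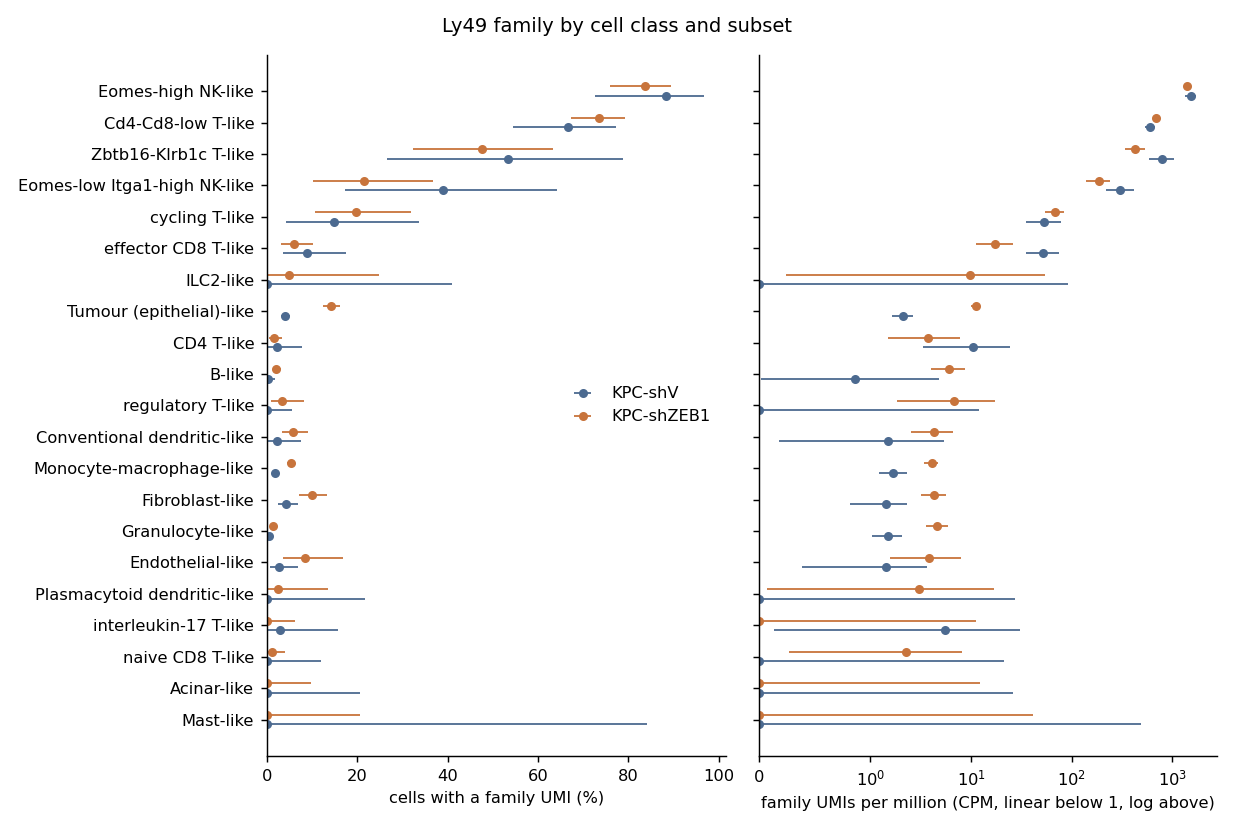
Share of cells with a family UMI (left, percent) and summed UMIs of the 7 members as CPM (right, linear below 1 and log above) by cell class and by T and NK subset, 1 point per library with exact 95% intervals. Eomes-high NK-like cells stand highest at 1520.0 CPM in KPC-shV and 1395 CPM in KPC-shZEB1, followed by Cd4-Cd8-low T-like (601 and 696 CPM) and Zbtb16-Klrb1c T-like cells (785 and 429 CPM).

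The activating receptors were highest in Eomes-high NK-like cells. Klra4 (Ly49D) gave 627 CPM (122 UMIs, 18 of 34 cells) in Eomes-high NK-like cells of KPC-shV and 446 CPM (318 UMIs, 54 of 128 cells) in those of KPC-shZEB1. In Cd4-Cd8-low T-like cells Klra4 had no UMI in 72 cells of KPC-shV (an upper limit of 4.17% on the share of cells with a UMI, from 3 counts) and 1 UMI in 231 cells of KPC-shZEB1. Klra4 was thus high in Eomes-high NK-like and nearly undetected in Cd4-Cd8-low T-like cells of both libraries. The ratio was at least 95.2 in KPC-shV, taken against a floor of 3 UMIs, and 550 (98.0–21785) in KPC-shZEB1. Klra8 (Ly49H), which recognises a protein of mouse cytomegalovirus, gave 375 CPM (73 UMIs, 12 of 34 cells) and 453 CPM (323 UMIs, 58 of 128 cells) in Eomes-high NK-like cells. In Cd4-Cd8-low T-like cells it had 0 UMIs in KPC-shV and 20 UMIs in 4 cells of KPC-shZEB1, a ratio over both libraries of 36.8 (23.5–61.0) in favour of the NK-like cells.

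Among the inhibitory receptors the order ran the other way for Klra1 and Klra6, but not for all of them (below). Klra1 (Ly49A) gave 160 CPM (73 UMIs, 27 of 72 cells) in Cd4-Cd8-low T-like cells of KPC-shV and 212 CPM (262 UMIs, 94 of 231 cells) in those of KPC-shZEB1. In Eomes-high NK-like cells it gave 5.14 CPM (1 UMI) and 79.9 CPM (57 UMIs, 18 cells), so its level there was 0.322 times (0.239–0.427) that of the T-like cells over both libraries. Klra6 (Ly49F) gave 81.2 CPM (37 UMIs) and 84.3 CPM (104 UMIs) in the T-like cells, against 0 UMIs in 34 Eomes-high NK-like cells of KPC-shV (a limit of 8.82% on cells with a UMI) and 28.0 CPM (20 UMIs) in KPC-shZEB1. Its ratio was 0.264 (0.156–0.423). Klra1 and Klra6 were thus higher in Cd4-Cd8-low T-like than in Eomes-high NK-like cells of both libraries. Over the whole NK-like and T-like classes that order held in KPC-shV only. In KPC-shZEB1 Klra1 stood at 66.4 CPM in NK-like and 36.4 CPM in T-like cells, and Klra6 at 20.8 and 15.4 CPM.

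Klra5 (Ly49E), which is best known from fetal NK cells and innate-like T cells, was low in both subsets and clustered in few cells. In Cd4-Cd8-low T-like cells of KPC-shV its 14 UMIs came from 1 cell, and in KPC-shZEB1 its 65 UMIs from 15 of 231 cells. In Eomes-high NK-like cells it had 5 UMIs in 1 cell and 3 UMIs in 1 cell, so that its ratio of 0.188 (0.0786–0.390) rests on 2 NK-like cells. In KPC-shV alone that ratio was 0.836 with an interval from 0.236 to 2.46. Its highest level lay elsewhere, in Zbtb16-Klrb1c T-like cells, at 157 CPM in KPC-shV (3 of 15 cells) and 174 CPM in KPC-shZEB1 (8 of 44 cells).

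Klra7 (Ly49G) was shared by Eomes-high NK-like and Cd4-Cd8-low T-like cells. It gave 385 CPM (75 UMIs, 19 of 34 cells) and 217 CPM (155 UMIs, 51 of 128 cells) in Eomes-high NK-like cells, and 307 CPM (140 UMIs, 32 of 72 cells) and 288 CPM (355 UMIs, 107 of 231 cells) in Cd4-Cd8-low T-like cells. Its NK-to-T ratio was 1.25 (0.935–1.67) in KPC-shV and 0.755 (0.621–0.914) in KPC-shZEB1, so the direction turned between the libraries, though the first interval includes 1. Klra9 (Ly49I) was higher in Eomes-high NK-like than in Cd4-Cd8-low T-like cells, at 103 and 167 CPM against 21.9 and 41.4 CPM, a ratio of 4.24 (3.12–5.83). Its level in Zbtb16-Klrb1c T-like cells was 282 CPM in KPC-shV and 130 CPM in KPC-shZEB1, above the NK-like cells in the first library and below them in the second. Klra3, which shares 3′ sequence with Klra9, had a ratio of 3.27 (2.40–4.49) in the same cells.

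**Figure D2:**
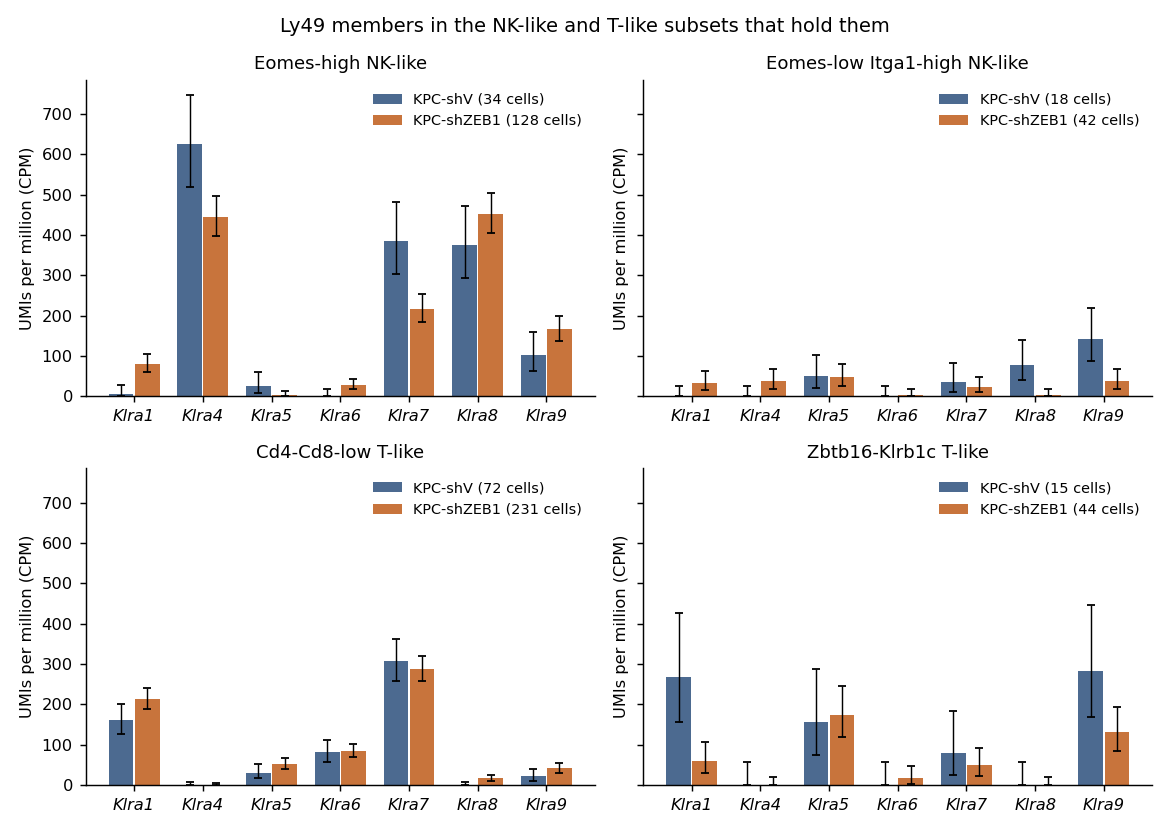
CPM of each member in the 4 T and NK subsets with the highest family level, 1 bar per library with exact 95% Poisson intervals. Klra4 and Klra8 stand out in Eomes-high NK-like cells, Klra6 in Cd4-Cd8-low T-like cells and Klra7 in both, while Klra1 in KPC-shV is highest in Zbtb16-Klrb1c T-like cells (267 CPM from 4 of 15 cells).

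Over both libraries the members of Eomes-high NK-like cells ran from Klra4 (485 CPM, 440–532) and Klra8 (436 CPM, 394–481), whose intervals overlapped, to Klra7 (253 CPM), Klra9 (153 CPM), Klra1 (63.9 CPM), Klra6 (22.0 CPM) and Klra5 (8.81 CPM). In Cd4-Cd8-low T-like cells the order was Klra7 (293 CPM), Klra1 (198 CPM), Klra6 (83.5 CPM), Klra5 (46.8 CPM, 37.0–58.3) and Klra9 (36.1 CPM, 27.6–46.4), with the last pair overlapping, then Klra8 and Klra4. The Zbtb16-Klrb1c T-like cells had another repertoire. There Klra5 and Klra9 each gave 42 UMIs and Klra1 28 UMIs, while Klra4 and Klra8 had none in 59 cells (a limit of 5.08% on cells with a UMI, at a median depth of 3994 UMIs). The Eomes-low Itga1-high NK-like cells, whose integrin Itga1 marks tissue-resident innate lymphocytes, held mainly Klra9 (31 UMIs in 6 cells) and Klra5 (21 UMIs in 7 cells), and Klra4 gave 11 UMIs in 2 of their 60 cells.

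The members were also counted without clusters. Of 114 cells with at least 2 Klra4 UMIs, 31 held Cd3, 48 held Ncr1 or Klrb1c without Cd3, and 35 held neither. For Klra8 the counts were 12, 44 and 9 of 65 cells. For Klra1 they were 94, 10 and 1 of 105 cells, and for Klra6 50, 1 and 1 of 52 cells. Klra7 stood between, with 124, 42 and 5 of 171 cells, as did Klra9 with 33, 32 and 3 of 68 cells, while Klra5 had 37, 5 and 2 of 44 cells. Most of the Klra4 cells with Cd3 were not T-like, since only 0.534% of 1685 T-like cells held any Klra4 UMI. The keratin Krt18 was found in 70.2% of the 114 Klra4 cells, beside 45.6–54.5% for the other members. In the tumour-like clusters led by Zfp804b and by Fermt1 (below), 32 and 11 cells held at least 2 Klra4 UMIs.

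NK-like cells with a family UMI mostly held more than 1 member. Of the 153 NK-like cells with a family UMI, 102 (66.7%, 58.6–74.1%) held at least 2 different members, in 59.5% of positive cells of KPC-shV and 69.0% of those of KPC-shZEB1. Among the 162 Eomes-high NK-like cells, 25 held none, 40 held 1, 43 held 2, 44 held 3, 9 held 4 and 1 held 5 members, a mean of 1.85. Among the 303 Cd4-Cd8-low T-like cells the same counts were 85, 95, 86, 31, 5 and 1, a mean of 1.27. These shares depend on depth. Thinned to 1000 UMIs, the share with at least 2 members fell to 38.4% of positive NK-like cells, and to 37.9% in Eomes-high NK-like and 20.6% in Cd4-Cd8-low T-like cells.

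**Figure D3:**
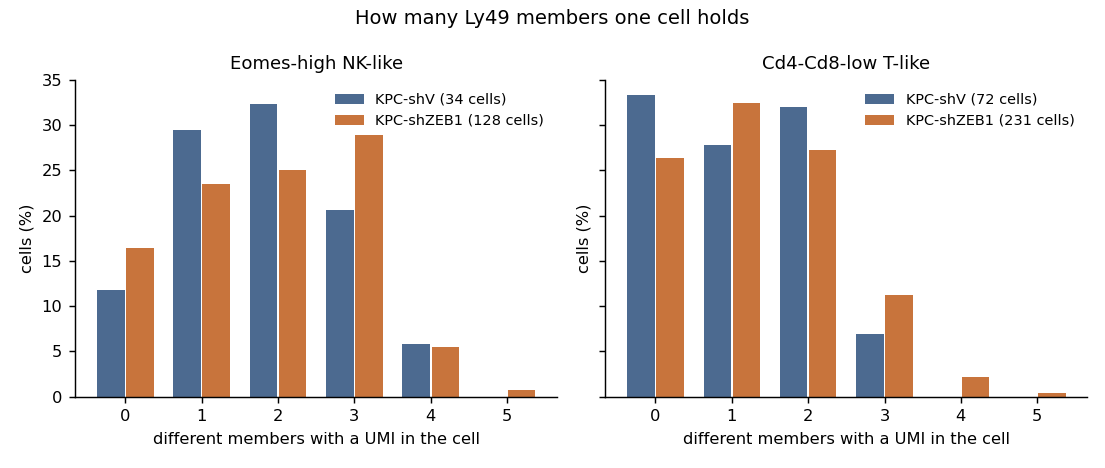
Share of cells (percent) by the number of different members detected in a cell, for Eomes-high NK-like and Cd4-Cd8-low T-like cells, with bars for each library. Over both libraries 40, 43 and 44 of the NK-like cells held 1, 2 and 3 members, against 95, 86 and 31 of the T-like cells.

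Within a subset some pairs were found together more often than others, as a description over cells that share their library. In Eomes-high NK-like cells Klra8 was found in 55.6% (43.4–67.3%) of the 72 cells with Klra4 and in 33.3% (23.7–44.1%) of the 90 without it, at median depths of 5501 and 4868 UMIs. These intervals overlap, and the cells with Klra4 were the deeper ones. The direction was shared by both libraries, at 44.4% against 25.0% in KPC-shV and 59.3% against 35.1% in KPC-shZEB1. Klra9 went the other way and was seen in 24.3% (14.8–36.0%) of cells with Klra7 and 41.3% (31.1–52.1%) of cells without it, with intervals that overlap.

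In Cd4-Cd8-low T-like cells Klra7 was found in 57.0% (47.7–66.0%) of the 121 cells with Klra1 and in 38.5% (31.4–45.9%) of the 182 without it, at equal depths (medians 5291 and 5286 UMIs). By library these shares were 48.1% against 42.2% in KPC-shV and 59.6% against 37.2% in KPC-shZEB1. Klra9 was held by 29 cells, 4 of KPC-shV and 25 of KPC-shZEB1. Klra6 was found in 51.7% (32.5–70.6%) of them and in 21.9% (17.1–27.3%) of the 274 cells without Klra9. Klra6 and Klra1, both frequent in these cells, showed no such difference, with Klra6 in 23.1% (16.0–31.7%) of cells with Klra1 and 25.8% (19.6–32.8%) of those without.

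**Figure D4:**
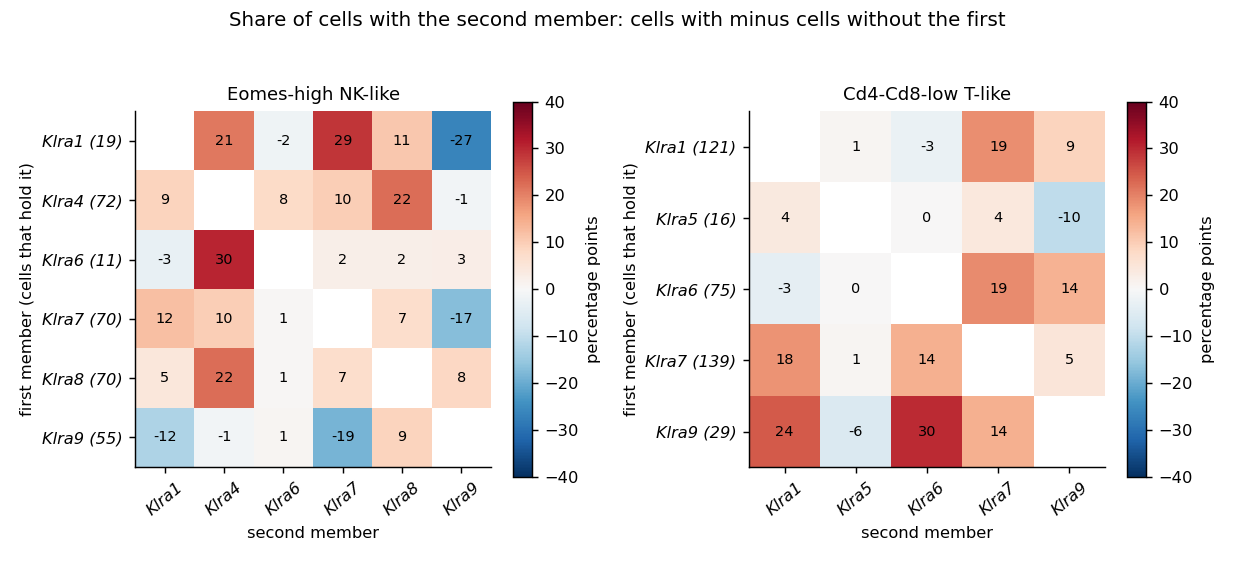
Each square gives the share of cells with the second member (column) among cells with the first (row) minus that among cells without it, in percentage points, for Eomes-high NK-like and Cd4-Cd8-low T-like cells of both libraries together. Red squares are higher with the first member, as where Klra8 stands at 55.6% with and 33.3% without Klra4 in the NK-like cells, and Klra7 at 57.0% with and 38.5% without Klra1 in the T-like cells.

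Cells with a member differed from those without in other genes. Among Cd4-Cd8-low T-like cells Trdc was found in 17.9% of the 218 cells with a member and 44.7% of the 85 without, and Itga1 in 45.0% and 22.4%. Klrb1c (NK1.1) was found in 29.4% and 15.3%, and the chemokine Xcl1 in 68.8% and 48.2%. Among NK-like cells Eomes was found in 64.1% of cells with a member and 15.9% without, and the granzyme Gzma in 73.9% and 33.3%. Most of that contrast follows the split into subsets, since 137 of the 153 NK-like cells with a member and 25 of the 69 without were Eomes-high. Within Eomes-high cells Gzma was found in 82.5% and 80.0%, and Eomes in 69.3% and 40.0%. Free RNA of other cells was present too, since S100a8 of granulocytes was found in 64.9% of the NK-like cells with a member in KPC-shV and 44.0% in KPC-shZEB1, and its part in these values was not tested. Median depths were similar, at 5201 to 5497 UMIs across the Cd4-Cd8-low T-like cells with 0, 1 or at least 2 members.

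The comparison of the libraries asked whether the hairpin against Zeb1 in the cancer cells went with another repertoire on the lymphocytes. NK-like cells were 0.456% of cells in KPC-shV (52 cells) and 1.40% in KPC-shZEB1 (170 cells), and T-like cells 3.58% (408 cells) and 10.6% (1277 cells). In NK-like cells the summed family stood at 1010.5 CPM in KPC-shV and 1040.4 CPM in KPC-shZEB1, a ratio of 1.03 (0.910–1.17), and in T-like cells at 140 and 136 CPM, a ratio of 0.970 (0.863–1.09). Within Eomes-high NK-like cells the family ratio was 0.918 (0.805–1.05), and within Cd4-Cd8-low T-like cells 1.16 (1.01–1.33). The class ratios depended on how cells were taken. With doublets kept and the cells clustered anew they were 0.858 (0.758–0.973) and 0.839 (0.757–0.931). With cells gated by UMIs of Cd3, Ncr1 and Klrb1c the T ratio was 1.14 (1.03–1.26), so the direction turned. That gate took any cell with a Cd3 UMI as T, 3827 cells beside 1685 T-like cells. Gated T cells held 31 Klra4 UMIs in KPC-shV and 241 in KPC-shZEB1, beside 0 and 28 in T-like cells. Cd3 was also found in tumour-like cells (below), and their part in the gated ratio was not tested.

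Of the 5 members with at least 30 UMIs in NK-like cells, 1 was at least 1.5-fold higher in KPC-shZEB1, and 12.3% of all 6087 genes counted were. None was at least 1.5-fold lower, against 8.23% of all genes. The member was Klra1, with 1 UMI in KPC-shV and 67 UMIs in KPC-shZEB1, 57 of them in 18 Eomes-high cells, a ratio of 22.3 (3.86–893). Klra7 stood at 0.673 (0.512–0.891), just inside that limit, Klra4 at 0.896, Klra9 at 1.08 and Klra8 at 1.28 (1.01–1.65). Both remaining members were too low to be counted, Klra5 with 12 and 17 UMIs and Klra6 with 0 and 21 UMIs, at least 2.33-fold higher in KPC-shZEB1 against the floor of 3 UMIs. The median log2 ratio was 0.11 over these members and 0.03 over all genes. Within Eomes-high NK-like cells 2 of 5 members were at least 1.5-fold higher, Klra1 and Klra9 (1.62, 1.01–2.76), beside 14% of 4876 genes, and 1 was lower, Klra7 (0.564, 0.426–0.754), beside 8.7%.

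In T-like cells 1 of the 6 members counted was at least 1.5-fold higher in KPC-shZEB1 and none was lower, beside 9.13% higher and 3.53% lower of all 11744 genes. It was Klra8, with 0 UMIs in KPC-shV and 52 in KPC-shZEB1, at least 6.14-fold higher against the floor of 3 UMIs. Of those 52 UMIs, 24 came from 5 cycling T-like cells. That subset held Cd3 in 90.9% of cells and Ncr1 and Klrb1c in 13.6% each, at a median of 16870 UMIs. A share of NK cells or doublets in it was not tested. Klra4, too low to be counted, had 0 and 28 UMIs, 22 of them in 3 cycling T-like cells. Klra7 had a ratio of 0.779 (0.649–0.938), Klra6 of 0.733, and Klra1, Klra5 and Klra9 lay between 1.05 and 1.11. The median log2 ratio was 0.08 over members, also with the 0 count at its bound, and 0.05 over all genes. Within Cd4-Cd8-low T-like cells 2 of 5 members were at least 1.5-fold higher, Klra5 (1.72, 0.953–3.31) and Klra9 (1.89, 0.946–4.17), both with intervals that include 1, beside 12.5% of 6645 genes, and none was lower, beside 6.97%.

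**Figure D5:**
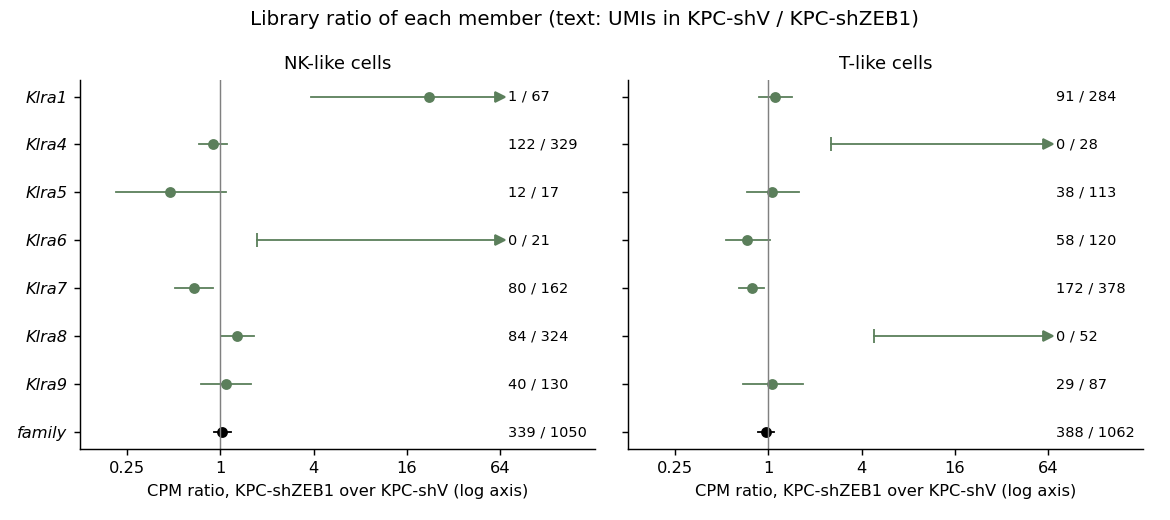
Ratio of CPM, KPC-shZEB1 over KPC-shV (log axis), for each member in NK-like and T-like cells, with exact 95% intervals conditional on the summed counts and the UMIs of both libraries beside each line (arrows run off the axis, and a line without a point is a member with no UMI in KPC-shV). Apart from Klra1 in NK-like cells and the members with no UMI in KPC-shV, the ratios lie between 0.471 and 1.28.

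Of the genes the Ly49 receptors work with, the adaptor DAP12 (Tyrobp) stood at 1034 CPM in NK-like cells of KPC-shV and 1002 CPM in those of KPC-shZEB1. In Cd4-Cd8-low T-like cells, where the members that use it gave 1 UMI (Klra4) and 20 UMIs in 4 cells (Klra8), it stood at 307 and 259 CPM. The phosphatase gene Ptpn6 (SHP-1) gave 80.5 and 75.3 CPM in NK-like cells and 52.6 and 44.6 CPM in Cd4-Cd8-low T-like cells. Of 9 adaptors and signal molecules, 1 was at least 1.5-fold higher and none lower in NK-like cells, beside 12.3% and 8.23% of all genes counted. None passed that limit in T-like cells, beside 9.13% higher and 3.53% lower of all genes. Of 13 other lectin receptors of the NK gene complex, 10 had enough UMIs in NK-like cells and none passed the limit (median log2 ratio -0.16). In T-like cells 1 of 13 was higher, Klrb1f with 8 and 37 UMIs (1.64, 0.751–4.08), beside 9.13% of all genes. Another was lower, Klrc3 with 23 and 43 UMIs (0.663, 0.391–1.15), beside 3.53%, and both intervals include 1.

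The ligand side was measured in the tumour-like cells. The MHC class I heavy chains H2-K1 and H2-D1 had ratios of 1.24 and 1.30, and the peptide transporter genes Tap1 and Tap2 of 1.69 (1.60–1.79) and 2.01 (1.82–2.24). Tap1 and Tap2 were thus at least 1.5-fold higher, and the heavy chains were not. These are 2 of the 5 genes on the list of ligands and their partners, beside 13% of all 16422 genes counted in tumour-like cells. None of the 5 was lower, beside 4.38%. The other lists stood higher there too. At least 1.5-fold higher were 7 of 9 lectin receptors, 5 of 10 transcription factors and 3 of 9 adaptors and signal molecules. Their median log2 ratios were 0.69, 0.56 and 0.40, against 0.37 for the list of ligands and their partners. Of the lectin receptors 1 was at least 1.5-fold lower. None of the 5 genes on the list of ligands and their partners passed the 1.5-fold limit in NK-like or T-like cells. Of 10 transcription factors, Ikzf2 (1.54-fold) and Zbtb16 (2.90-fold, 1.55–6.01) were at least 1.5-fold higher in NK-like cells of KPC-shZEB1, beside 12.3% of all genes, and Zbtb16 was lower in T-like cells (0.650), beside 3.53%. The part of free RNA in these ratios was not tested.

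Over 57 units of at least 30 cells (clusters by library, 19 of them T or NK) and 9203 genes, the genes most like the summed family were Klrb1c (Pearson r = 0.905), Klrc2 (0.885), Klre1 (0.878), Samd3 (0.875) and Ncr1 (0.851), 4 of them NK receptor genes. Units of a library share its free RNA and depth. Klrb1c was also the nearest gene to Klra1 (0.850), Klra7 (0.896), Klra8 (0.752) and Klra9 (0.925), while Klra4 was nearest to Klrb1a (0.748), Klra5 to Klrc2 (0.840) and Klra6 to Samd3 (0.752).

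Outside lymphocytes Klra4 had a further site. Tumour-like cells held 32.7% of its 866 UMIs, more than any other member had there (4.78–9.80%). The 3 members counted in these cells, Klra4 (5.19, 3.77–7.28), Klra7 (4.21) and Klra8 (6.24), were all at least 1.5-fold higher in KPC-shZEB1, beside 13% of all 16422 genes counted there. The family background in granulocyte-like cells also stood at 1.49 CPM in KPC-shV and 4.62 CPM in KPC-shZEB1. Of the Klra4 UMIs in tumour-like cells, 172 lay in 1 cluster led by Zfp804b, Pcdh9 and Ralyl. Of its cells 226 came from KPC-shZEB1 and 8 from KPC-shV. This cluster held 171 of the 237 Klra4 UMIs in tumour-like cells of KPC-shZEB1, so the Klra4 ratio rests largely on a cluster nearly absent from KPC-shV. In KPC-shZEB1 68 of the 226 cells (30.1%, 24.2–36.5%) held Klra4, at 23.7 CPM (20.3–27.5), with up to 13 UMIs in a cell, while the other 6 members together gave 40 UMIs. All 69 positive cells of the cluster held Krt18, an epithelial keratin, and Cd3 was found in 34.8% of them and in 37.0% of the negative cells. These cells are deep, with a median of 29284 UMIs in KPC-shZEB1, and a share of doublets among them was not tested. In the largest tumour-like cluster, led by Fermt1 and Onecut2, 58 of 1380 cells (4.20%) held Klra4.

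Myeloid cells held little of the 7 members and much of their relatives. The members gave 319 UMIs (3.01 CPM) in 1.75% of myeloid cells, 0.743% in KPC-shV and 2.91% in KPC-shZEB1, beside 0.346% and 2.12% of B-like cells. Klra2 (Ly49B) and Klra17 (Ly49Q), the members known from myeloid cells, gave 10315 and 1089 UMIs, of which 92.0% and 92.2% lay in myeloid classes. Klra2 was found in 59.9% of monocyte-macrophage-like and 19.0% of granulocyte-like cells, and Klra17 in 74.1% of plasmacytoid dendritic-like cells at 198 CPM. Klra3 was spread over both compartments, with 46.2% of its 515 UMIs in myeloid, 22.5% in NK-like and 21.9% in T-like cells, and Klra10 (Ly49J) gave 29 UMIs in all, 17 of them in NK-like cells.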

How the data were processed

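Droplet 3′ RNA-seq (10x Genomics Chromium v3.1) was done on 2 tumours. The authors deposited filtered matrices of UMI counts per gene and barcode, made with Cell Ranger 7.0.1 against mm10 per the submitters' processing notes. Whether introns were counted was not given in the sources used here. No value was normalized before deposit.

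From these counts, barcodes were kept that had at least 500 genes, between 1000 and 60000 UMIs, and no more than 15% of UMIs from mitochondrial genes. Doublets with a Scrublet score above 0.2 were removed (315 and 343). Cells were clustered with scanpy 1.11.5 and leidenalg 0.10.2 on 3000 variable genes without Klra genes and 30 components. T and NK clusters were clustered again (2000 genes, 20 components, resolution 1.5). Classes were named by summed marker levels. Members were summed per class and library, and CPM, shares and ratios were given with exact intervals (scipy 1.17.1). With 1 library per group there was no test. Ratios were counted at 1.5-fold for genes with at least 30 UMIs. Log2 ratios had 1 CPM added. The scripts were tested on simulated data. Named genes were the 7 members, the other Klra genes, lists of lectin receptors, adaptors, ligands and transcription factors, and the genes most like the members by Pearson's r of log2(CPM + 1). Members and lists were chosen with earlier results of these data known. Alternatives covered doublets, cell filters, gating by UMIs, resolution, thinning, weighting, background subtraction and the UMIs that make a cell positive.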

Additional observations from a re-analysis of the deposited data

Results flagged for a closer look

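The barcodes above 60000 UMIs, which were left out of all classes, also held the family. In KPC-shZEB1 35.5% of 217 such barcodes (29.1–42.2%) had a family UMI, and in KPC-shV 18.7% of 289 (14.4–23.7%), above the 0.848% of granulocyte-like cells, which are far shallower (median 3046 UMIs). Per UMI the family stood at 11.2 CPM there in KPC-shZEB1 and at 4.98 CPM in KPC-shV. In tumour-like cells of the same libraries it stood at 11.1 and 2.10 CPM. In the barcodes above 60000 UMIs Klra4 made up 141 of 211 family UMIs in KPC-shZEB1 and 108 of 128 in KPC-shV. The part of doublets and of depth in these shares was not tested. Barcodes left out for other reasons had a family UMI in 5.47% of 950 in KPC-shZEB1 and 2.87% of 907 in KPC-shV.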

How the results depend on the processing

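Of 56 alternative values, 35 stayed within the counting interval, or for counts of members within 1.5 times. Keeping doublets gave a family UMI in 84.3% of NK-like and 19.8% of T-like cells, and library ratios of 0.858 and 0.839. It put 2 members (1 higher, 1 lower) past 1.5-fold in NK-like and 3 (2 higher, 1 lower) in T-like cells. The cells were then clustered anew, so these classes need not hold the same cells as the main ones. Gating cells by UMIs of Cd3, Ncr1 and Klrb1c in place of clusters put 81.0% of family UMIs in NK and T cells. Of gated cells 38.5% of NK and 12.6% of T cells were positive, and 57.5% of positive NK cells held at least 2 members. The gated T ratio was 1.14, and 2 members were past 1.5-fold in each class. Gated T cells, any cell with a Cd3 UMI, numbered 3827, beside 1685 T-like cells. Thinning to 1000 UMIs gave 87.2% of family UMIs in NK-like and T-like cells, 50.5% and 9.44% of cells positive, and 38.4% with at least 2 members. Asking for 2 UMIs gave 13.5% of T-like cells. Without Klra4, an alternative chosen after seeing the data, the lymphocytes held 82.7% of family UMIs. Cells of at least 200 genes and 500 UMIs gave 2 members past 1.5-fold in both classes. The share of all genes past 1.5-fold was not counted under these alternatives, so their counts of members cannot be set against it. The cause was not tested except where thinning or the 2-UMI rule removes UMIs by construction. Sub-cluster resolution, Klra genes in clustering, weighting and background subtraction stayed within those limits. All these values are of the NK-like and T-like classes, and sub-cluster resolution 1 left them unchanged. Apart from thinning, no alternative was read by subset, so how the subset values depend on resolution was not tested. No replicate could be left out. Subsets of 15 to 72 cells in KPC-shV limit member values there. No paired analysis was possible because the groups hold 1 library each and share no replicate pair.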
